A study of Danio rerio and Xiphophorus maculatus with 12 samples.

Results

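The data described here are the platyfish ventricles of a study of heart injury in adult fish, namely ventricles collected 7 days after cryoinjury and ventricles of fish that were left unmanipulated. They were chosen by their labels, and they make up 6 of the 12 libraries in the series, 3 cryoinjured and 3 uninjured. Both groups were adult wild-type platyfish, Xiphophorus maculatus, a livebearing fish. In the cryoinjured group a part of the ventricle was killed by freezing on day 0, and on day 7 the ventricle was cut free of the atrium and the bulbus arteriosus. The uninjured ventricles were taken in the same way from fish without surgery, so that the groups differ by the operation as well as by the wound, with no sham-operated group among the 6 libraries. Each library is 1 pool of total RNA from 8 ventricles, sequenced as stranded messenger RNA, and the cell type is labelled as mixed, so that every value is an average over all the cells of 8 ventricles. One label, the treatment of the cryoinjured platyfish libraries, names zebrafish, whereas the title, the organism and the library name of the same libraries name platyfish, and every gene in the table carries a platyfish identifier.

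Cryoinjury kills cardiomyocytes together with the vessels, the inner lining and the outer covering of the frozen wall, and dead tissue is cleared while a collagenous scar is laid down. In teleosts the epicardium, the mesothelial covering of the heart, is activated by the wound and gives rise to fibroblast-like and perivascular cells, immune cells enter, and surviving cardiomyocytes at the border can divide. Matrix proteins, the enzymes that fold and cross-link them, secreted growth factors and the transcription factors of the epicardium are therefore among the genes by which such a response is usually described.

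The 6 libraries held between 19073562 counts, in uninjured replicate 3, and 31148127 counts, in uninjured replicate 1. The cryoinjured libraries held 25896418 to 26241176 counts. Of 24209 genes in the table, 15226 had enough counts to be tested, and 411 of these were higher in cryoinjured ventricles (2.70% of the genes tested) while 186 were lower (1.22%) at an adjusted p under 0.05, by edgeR's quasi-likelihood test with Benjamini-Hochberg adjustment over all genes tested. These are the genes called higher or lower in the text, and "rose" and "fell" are used of them only. The p-values measure the spread between pools. Before adjustment, 3678 of the 15226 genes tested had a p under 0.05 by the edgeR test. Genes called higher changed more than genes called lower: 311 of the 411 were at least 2-fold higher and 123 at least 4-fold, whereas 76 of the 186 were at least 2-fold lower and 3 at least 4-fold. The median log2 fold change was 1.45 over the genes called higher, -0.91 over those called lower and 0.01 over all genes tested. In each of the 597 called genes the 3 cryoinjured libraries did not overlap the 3 uninjured ones, but the same was true of 30.4% of all genes tested. Correlations between libraries of log2 counts were 0.962 to 0.979 within a group and 0.936 to 0.961 between groups.

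The size of the call lists depended on single libraries, and 2 uninjured pools moved it in opposite directions. Without uninjured replicate 1, 21 genes were called higher and 6 lower (0.135% and 0.0385%), and without cryoinjured replicate 3, 42 and 14 (0.270% and 0.0901%). Leaving out uninjured replicate 2 gave 53 and 9 (0.341% and 0.0578%), and leaving out cryoinjured replicate 1 gave 124 and 36 (0.801% and 0.232%). Without uninjured replicate 3, which correlated less with the other uninjured pools (0.962 with each, against 0.979 between those 2), 572 were called higher and 436 lower (3.68% and 2.81%). In all 6 fits that each left out 1 library, 20 genes were called higher and 5 lower (0.131% and 0.0328% of the genes tested). The replicate number stands under a batch tag in the labels, and with that number as a block 203 genes were called higher and 53 lower (1.33% and 0.348%), of which 187 and 44 were among the 411 and 186 (1.23% and 0.289% of the genes tested). Some of the 189 named genes tested were not called in the main fit and had no call to lose. Of the others, 61 lost their call with this block. The loss is given below for some of these genes only. Scaling by library size alone, in place of a trimmed mean, raised the median log2 fold change of all genes to 0.14 and gave 544 genes higher and 104 lower (3.57% and 0.683%), so that the share of calls that were higher was 84.0%, against 68.8%.

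Genes were read in 67 lists by role, which together held 2225 tested genes, with 174 of the 411 genes called higher and 24 of the 186 called lower. The lists were written with earlier results of these data known, so their shares of calls are descriptive and test nothing. Calls were most frequent in 2 groups of lists. Of 228 tested genes of the extracellular matrix lists, 54 rose and 1 fell, and of 169 tested cell-cycle genes 43 rose and none fell, against 2.70% and 1.22% of all genes tested. Of 232 cell type markers, 27 rose and 1 fell, and of 247 secreted factors 20 rose and 1 fell. In the remaining groups the calls were 9 higher and 6 lower of 281 transcription factors, 6 and 1 of 119 receptors and adhesion genes, 3 and 2 of 175 signalling genes, and 40 and 12 of 1003 genes of organelles, cytoskeleton, contraction and metabolism.

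**Figure D1:**
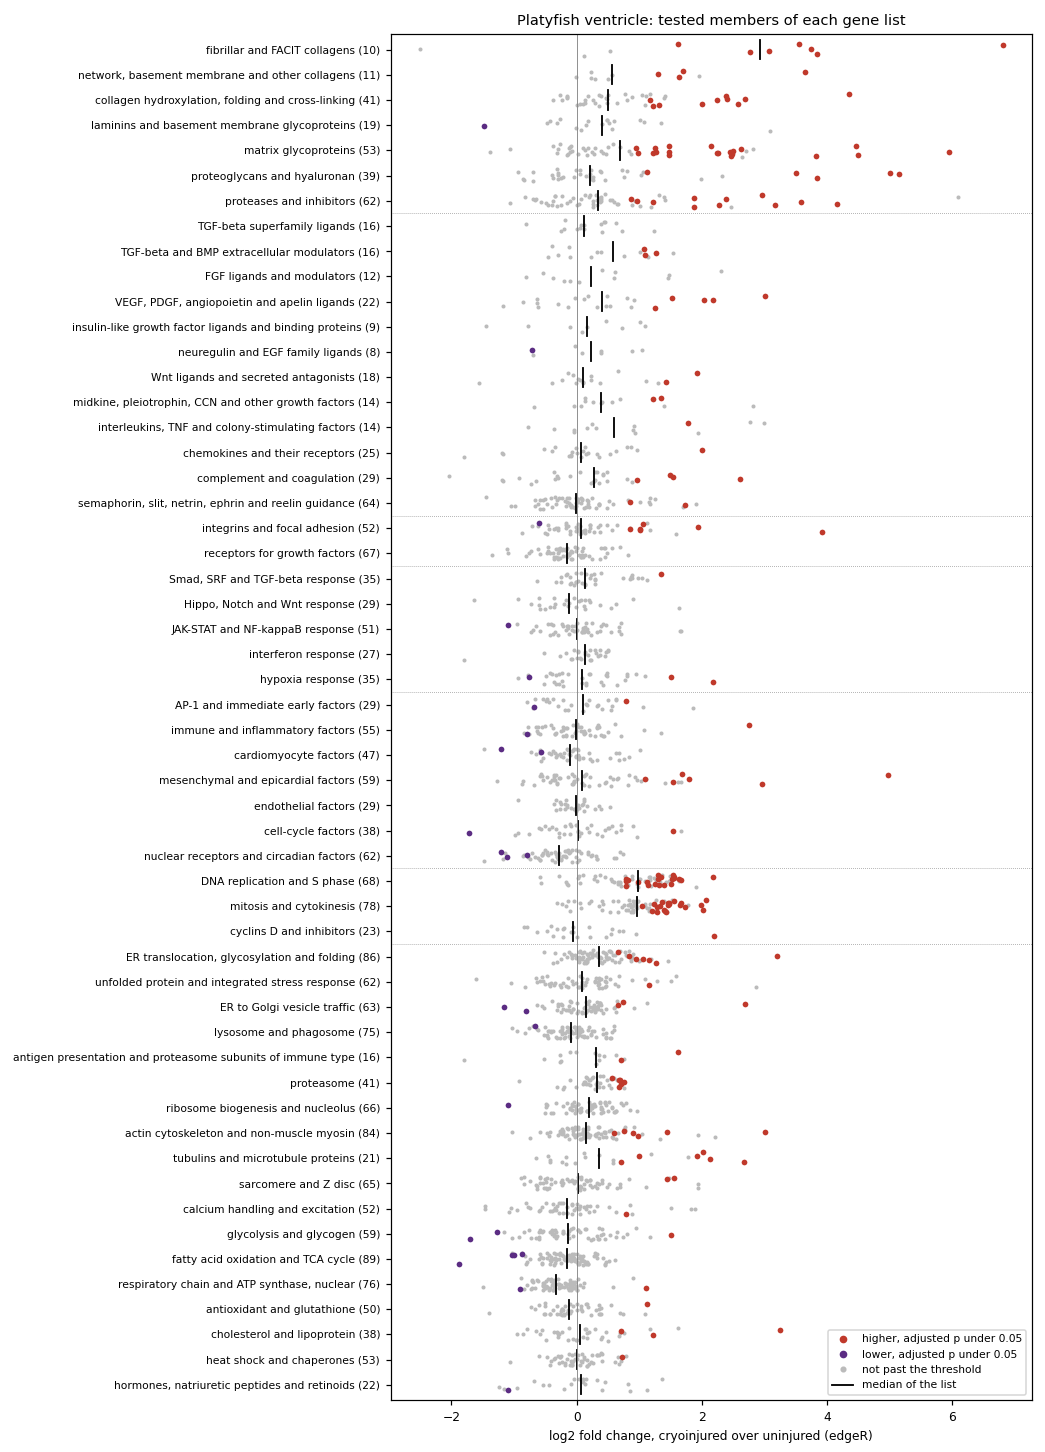
Log2 fold changes, cryoinjured over uninjured, of the tested members of 54 gene lists (the number tested in brackets), with genes called higher in red, genes called lower in purple, other members in grey and the list median as a black bar; dotted lines separate the groups of lists. The medians of the fibrillar collagens and of the replication and mitosis lists lie to the right, at 2.92, 0.99 and 0.96, although 1 member of the first lies at -2.50. The third cell-cycle list, D-type cyclins and inhibitors, has a median of -0.07. The growth factor receptors and the respiratory chain sit slightly to the left, at -0.16 and -0.33.

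The labelled tissue was checked against markers of the cells a ventricle holds. Transcripts of the heart muscle were abundant in every library: myl7, the atrial-type light chain that marks fish cardiomyocytes in both chambers, had 201904, 309720 and 339074 in the cryoinjured libraries and 238099, 225267 and 269372 in the uninjured libraries. tnnt2a, cardiac troponin T, had 85037, 94282 and 109592 in cryoinjured and 139375, 158363 and 104350 in uninjured ventricles. Neither passed the threshold (log2 fold changes 0.22 and -0.48, adjusted p = 0.612 and 0.214). The summed counts of 32 cardiomyocyte markers were 8.0% to 9.88% of a library in cryoinjured ventricles and 9.79% to 10.6% in uninjured ventricles, ranges that overlap. Of the 30 markers tested, 2 rose, TPM1 and TPM4, and none fell, with a median of -0.24. Other fits differed. DESeq2 called 2 higher and 4 lower (5.50% and 4.64% of all genes). edgeR without uninjured replicate 3 called 1 higher and 4 lower (3.68% and 2.81%). With the replicate block none was called. In pools of mixed tissue, fewer cells of a type and less RNA per cell cannot be told apart, here and in every result that follows.

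Of the 13 lists of cell type markers, those of fibroblasts and epicardium and of skeletal muscle had summed counts that did not overlap between groups. The fibroblast and epicardial markers summed to 0.174% to 0.242% of a library in cryoinjured ventricles, against 0.0758% to 0.0958% in uninjured ventricles, and 15 of the 31 tested members rose, with a median log2 fold change of 1.47. Most of the difference in that sum came from s100a10a, an annexin partner, and the genes of collagen I. Mean normalised counts in cryoinjured and uninjured ventricles were 12188 and 1512 for s100a10a and 4873 and 339 for col1a2. The 3 defining markers did not move alike. The collagen gene col1a2 rose, while tcf21, a transcription factor of epicardial cells and fibroblasts, had 498, 519.5 and 747 in cryoinjured ventricles, against 550.4, 564 and 397 in uninjured ventricles (log2 fold change 0.22 ± 0.20 (SE), adjusted p = 0.539). pdgfra, the receptor that marks fibroblasts, had 1048, 714 and 650.3 in the cryoinjured libraries and 842, 1104 and 787 in the uninjured libraries (-0.18 ± 0.21, adjusted p = 0.635). The groups overlapped for both.

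No marker of macrophages, neutrophils, T and NK cells, B cells or endothelium passed the threshold by edgeR, of 31, 16, 9, 11 and 31 tested. Macrophage markers summed to 0.363% to 0.536% of a library in cryoinjured ventricles and 0.473% to 0.717% in uninjured ventricles, and most of that sum was 1 gene, mrc1a, a mannose receptor that lymphatic and venous endothelium of zebrafish also expresses. Its normalised counts were 87666, 45826 and 56395 in cryoinjured and 108950, 102250 and 130090 in uninjured ventricles. Among the defining markers, mpeg1.2, a pore-forming protein of macrophages, had 397, 865 and 509 in cryoinjured ventricles, against 371, 332 and 553 in uninjured ventricles, and csf1ra, the receptor for their growth factor, had 262, 344 and 303 in the cryoinjured libraries and 221, 420 and 352 in the uninjured libraries. The groups overlapped for both, with adjusted p = 0.36 and 0.777. The macrophage marker with the smallest p was coro1a, with 2450, 3026 and 3671 in cryoinjured and 1563, 2132 and 2080 in uninjured ventricles. Its groups did not overlap (log2 fold change 0.66 ± 0.19, adjusted p = 0.0857). Over the macrophage list, 16 tested markers were above 0 and 15 below. By edgeR, the unadjusted p was under 0.05 for 7 macrophage, 3 neutrophil, 6 endothelial and no lymphocyte markers. Of all 15226 genes tested, 3678 had such a p. DESeq2, which called 5.50% of all genes higher and 4.64% lower, called 2 macrophage markers higher and 2 lower, 1 neutrophil marker higher, and 2 endothelial markers higher and 2 lower, while limma voom (2.30% and 1.08%) called none of these. Without uninjured replicate 3, edgeR called 3 neutrophil markers and 1 macrophage marker higher and 1 endothelial marker lower (3.68% and 2.81% of all genes). The neutrophil marker with the smallest p was mpx (ENSXMAG00000004163), myeloperoxidase, with 806, 831 and 572 in cryoinjured and 292, 439 and 486 in uninjured ventricles (log2 fold change 0.86 ± 0.22, adjusted p = 0.0654). Its cryoinjured libraries all lay above the uninjured ones. A neighbouring copy of mpx held 0.898 to 10.4 normalised counts and was not tested. Other neutrophil markers were LYZ (ENSXMAG00000011983), a lysozyme, at 1755, 1676 and 1601 in cryoinjured ventricles, against 646, 1446 and 1989 in uninjured ventricles, and mmp13b, a collagenase, at 224, 75.9 and 118 in the cryoinjured libraries and 5.39, 11.2 and 62.7 in the uninjured libraries. LYZ overlapped between groups and mmp13b did not, and neither passed (adjusted p = 0.629 and 0.136).

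None of 9 tested T and NK cell markers and 1 of 11 B cell markers separated the groups, against 30.4% of all genes tested. The defining markers overlapped. lck, a kinase of the T cell receptor, had 432, 564 and 414 in cryoinjured and 241, 347 and 721 in uninjured ventricles, cd4-1, a coreceptor, had 23.9, 43.5 and 15.7 in cryoinjured ventricles, against 25.1, 56.2 and 55 in uninjured ventricles, and cd79a, a chain of the B cell receptor, had 90.9, 132 and 115 in the cryoinjured libraries and 111, 95 and 78.1 in the uninjured libraries. For the vessel lining, kdrl and kdr, which encode receptors for VEGF, had log2 fold changes of -0.33 ± 0.14 and 0.04 ± 0.17, pecam1, an adhesion molecule, 0.25 ± 0.19 and cdh5, the cadherin of endothelial junctions, -0.80 ± 0.45, with adjusted p between 0.187 and 0.909. The endothelial marker with the smallest p was spock3, at 390.3, 552 and 461 in cryoinjured and 957, 973 and 605 in uninjured ventricles (adjusted p = 0.0601).

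Thrombocyte markers, those of the nucleated fish counterpart of platelets, gave 5 calls. Of 14 tested, 5 rose and none fell, with a median of 0.95 and 13 above 0. gp1bb, a subunit of the receptor for von Willebrand factor, had 126, 274 and 253 in cryoinjured ventricles, against 83.5, 57.2 and 60.2 in uninjured ventricles (log2 fold change 1.69 ± 0.32, adjusted p = 0.0293). thbs1b, a thrombospondin that platelets release, had 582, 608 and 835 in the cryoinjured libraries and 302, 257 and 169 in the uninjured libraries (1.47 ± 0.23, adjusted p = 0.0187). Groups did not overlap for either gene. mpl, the thrombopoietin receptor, was at 149.7, 178 and 144 in cryoinjured and 93.4, 74.6 and 62.7 in uninjured ventricles (1.03 ± 0.22, adjusted p = 0.0435). The summed counts of the list, however, overlapped, at 0.0519% to 0.0644% in cryoinjured and 0.0405% to 0.0520% in uninjured ventricles, and its most abundant member, fli1a, did not pass (adjusted p = 0.516; 8246, 8091 and 6975 in cryoinjured ventricles, against 9299.7, 7742 and 9371 in uninjured ventricles). With the replicate block, 3 of the 5 calls in this list were made, not those of gp1bb (adjusted p = 0.0691) and mpl (0.0869). No call in this list was made in all 6 fits without 1 library, and none without uninjured replicate 1 or without cryoinjured replicate 3. Of red blood cell markers, 1 of 17 rose: gata1a, the transcription factor of erythroid and thrombocyte precursors, at 372, 423 and 469 in the cryoinjured libraries and 242, 176 and 108 in the uninjured libraries (1.26 ± 0.27, adjusted p = 0.0419), while alas2, the first enzyme of haem synthesis in red cells, was at 2978, 8854 and 10274 in cryoinjured and 3867, 3036 and 1334 in uninjured ventricles and overlapped (adjusted p = 0.166). Smooth muscle markers were divided: myh11a, smooth muscle myosin, rose, with 153, 186 and 242 in cryoinjured ventricles, against 68.2, 79.7 and 48.6 in uninjured ventricles (1.56 ± 0.26, adjusted p = 0.0202), mylka, a myosin light chain kinase, fell, with 121, 159 and 151 in the cryoinjured libraries and 242, 272 and 244 in the uninjured libraries (-0.81 ± 0.17, adjusted p = 0.0419), and acta2, smooth muscle actin, had 1941, 855 and 965 in cryoinjured and 439, 833 and 645 in uninjured ventricles with an adjusted p of 0.152.

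Tissue from outside the ventricle was looked for in the same way. The glial marker mpz had at most 15.6 normalised counts in any library, the liver marker fabp10a at most 7.15 and the pancreatic protease CELA1 at most 20.2, and none of them was tested. CPA1 (ENSXMAG00000014420), a pancreatic carboxypeptidase, had 45.9, 50.9 and 75.2 in cryoinjured ventricles, against 87.1, 5551 and 74.2 in uninjured ventricles, so that 1 uninjured pool stood far above the other 5 libraries. ckma, the muscle creatine kinase, had 6.43, 2.78 and 241 in the cryoinjured libraries and 74.5, 481 and 2.56 in the uninjured libraries, and neither gene passed the threshold. TNNT3, a troponin T and another defining marker of skeletal muscle, had at most 8.27 normalised counts in any library and was not tested. The skeletal muscle list summed to 0.835% to 0.887% of a library in cryoinjured ventricles and 0.432% to 0.532% in uninjured ones. Most of that sum was 1 of the 2 genes named ACTA1, skeletal-type alpha-actin (ENSXMAG00000007690), with 187260, 175048 and 199051 in cryoinjured and 97891, 138306 and 109708 in uninjured ventricles (adjusted p = 0.0828). The other (ENSXMAG00000015025) rose, with 10114, 9515 and 14521 in cryoinjured ventricles, against 3137, 5081 and 3447 in uninjured ventricles (log2 fold change 1.55 ± 0.24, adjusted p = 0.0175). How reads of such similar copies were divided is not given in the sources used here, and their values are uncertain for that reason. ACTC1, an actin among the defining cardiomyocyte markers, had at most 30.3 normalised counts in any library. Whether the ACTA1 transcripts came from heart muscle or from skeletal muscle was not tested.

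**Figure D2:**
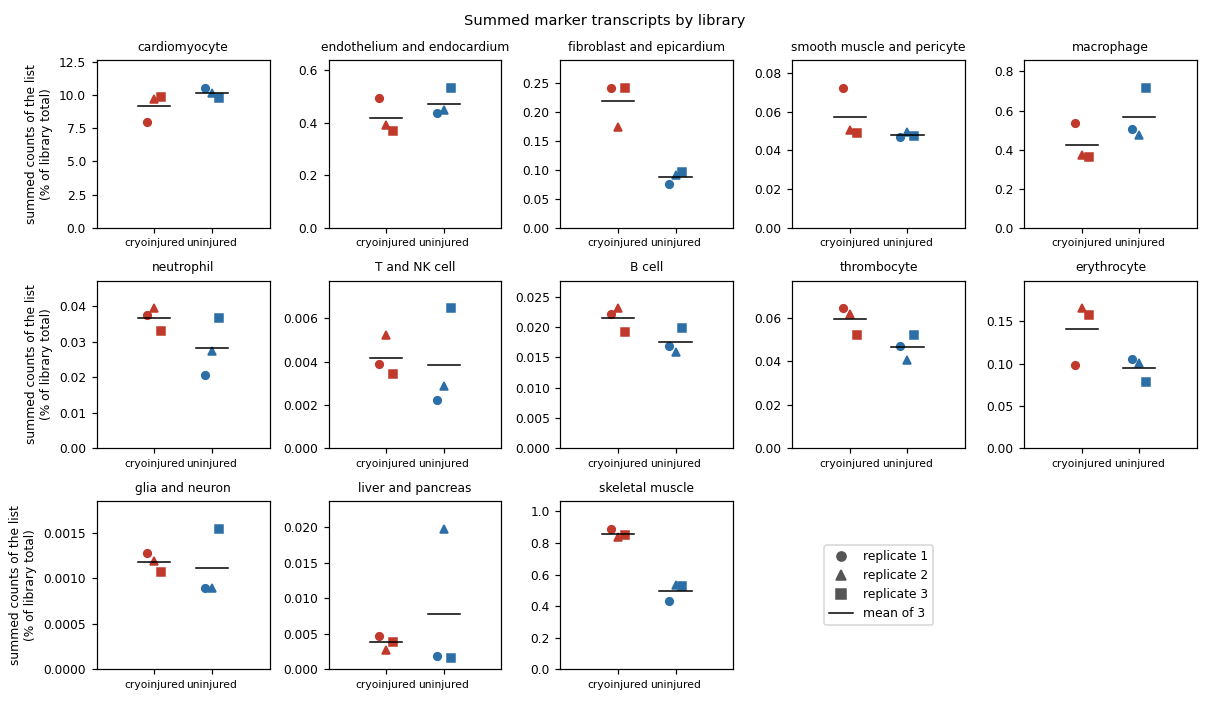
Summed counts of the markers of 13 cell types in each library, as a percentage of all counts of the library (cryoinjured red, uninjured blue, with a symbol for each replicate number and a black line for the mean of 3); each axis starts at 0 and has its own scale. The fibroblast and epicardial panel and the skeletal muscle panel separate the groups completely. Most of the difference in the first lies in s100a10a and the genes of collagen I, and most of the skeletal muscle sum is 1 ACTA1 gene. The macrophage and cardiomyocyte panels overlap, and 1 uninjured pool stands alone in the liver and pancreas panel.

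Genes of the collagen fibril had the highest median of the 67 lists. Of 10 tested genes of fibrillar collagens and of the collagens that coat fibrils, 7 rose and none fell, with a median log2 fold change of 2.92 (0.01 over all genes tested). In the main fit 1 of the 10 was below 0, at -2.50. DESeq2, and edgeR without uninjured replicate 3, each called 1 gene of the list lower (4.64% and 2.81% of all genes). The 3 genes of collagen I, the main protein of scars, were 3.55 to 3.84 higher on the log2 scale. col1a1b, 1 of its 2 alpha-1 genes, had 4649, 2207 and 5383 in the cryoinjured libraries and 319, 391 and 337 in the uninjured libraries (3.55 ± 0.33, adjusted p = 0.00576). Cryoinjured replicate 2 was lowest of its group, as it was for each collagen named here, and still far above every uninjured library. col12a1a, which encodes the fibril-coating collagen XII, had 261, 198 and 360.1 in cryoinjured and 40.4, 25.5 and 30.7 in uninjured ventricles (3.07 ± 0.29, adjusted p = 0.00444). col11a1b, a chain of the minor fibrillar collagen XI that sets fibril diameter in cartilage, was read in cryoinjured ventricles only save for a single read: normalised counts were 48.7, 18.5 and 90.8 in cryoinjured ventricles, against 0.898, 0 and 0 in uninjured ventricles, from 160 reads in the 3 cryoinjured libraries and 1 in the 3 uninjured ones (adjusted p = 0.0162). No fold is given for it. Among other collagens 4 of 11 rose. col6a1 and col6a2, 2 chains of the beaded filaments of collagen VI, rose together, the first with 612, 529.7 and 1018 in the cryoinjured libraries and 184, 238 and 244 in the uninjured libraries (1.70 ± 0.26, adjusted p = 0.0174) and the second by 1.63 ± 0.24. COL4A5, a chain of the basement membrane collagen IV, was at 187, 98.2 and 154 in cryoinjured and 60.2, 64.4 and 53.8 in uninjured ventricles (1.30 ± 0.28, adjusted p = 0.0402). Its call did not hold with the replicate block (adjusted p = 0.0802). Of 19 laminins and other basement membrane glycoproteins none rose and 1 fell by edgeR, frem2b, a protein of the epithelial basement membrane, with 83.6, 52.8 and 91.9 in cryoinjured ventricles, against 172, 214 and 252 in uninjured ventricles (-1.48 ± 0.26, adjusted p = 0.0235). The median of these 19 was 0.41, with 13 above 0, and the unadjusted edgeR p was under 0.05 for 9. DESeq2 called 5 of them higher and 2 lower (5.50% and 4.64% of all genes).

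Enzymes that modify collagen gave 10 calls. Of 41 tested genes for the hydroxylation, folding, processing and cross-linking of collagen, 10 rose, none fell and 35 were above 0. loxa, lysyl oxidase, which oxidises lysines to start cross-links, had 416, 352 and 626 in the cryoinjured libraries and 62, 73.6 and 99.8 in the uninjured libraries (2.57 ± 0.27, adjusted p = 0.00611). Its relative loxl2a had 554, 583 and 495 in cryoinjured and 176, 134 and 96 in uninjured ventricles (2.00 ± 0.22, adjusted p = 0.00685). Both were called in all 6 fits without 1 library. plod2, the lysyl hydroxylase of the collagen ends, had 1188, 486 and 974 in cryoinjured ventricles, against 130.2, 152 and 128 in uninjured ventricles (2.69 ± 0.32, adjusted p = 0.00989), with no overlap and with cryoinjured replicate 2 again lowest. pcolcea, which speeds the removal of the procollagen end, was at 2610.3, 1671 and 3229.7 in the cryoinjured libraries and 403, 751 and 425 in the uninjured libraries (2.25 ± 0.32, adjusted p = 0.0174, but 0.0563 with the replicate block). p4ha3, a catalytic subunit of prolyl hydroxylase, was low in both groups, with 49.6, 26.9 and 40.7 in cryoinjured and 0, 2.04 and 3.84 in uninjured ventricles from 5 reads in all in uninjured libraries (adjusted p = 0.0194).

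Of 53 matrix glycoproteins tested, 20 rose and none fell, with a median of 0.69. The smallest p belonged to the thrombospondin gene thbs4b (4.49 ± 0.31). ECM2, a leucine-rich matrix protein, had 577, 403 and 670.2 in cryoinjured ventricles, against 101, 145 and 98.6 in uninjured ventricles (2.26 ± 0.24, adjusted p = 0.00611). mfap5, a glycoprotein of elastic microfibrils, had 1044, 665 and 1146 in the cryoinjured libraries and 185, 284 and 178 in the uninjured libraries (2.14 ± 0.26, adjusted p = 0.00949). mxra8b, a membrane protein with immunoglobulin domains, was at 572, 258 and 408 in cryoinjured and 72.7, 93 and 60.2 in uninjured ventricles (2.45 ± 0.31, adjusted p = 0.0111). All 3 separated the groups with a wide gap. dpt, dermatopontin, which binds collagen fibrils, differed less but was even within groups, at 622, 579.7 and 584 in cryoinjured ventricles, against 322, 283 and 317 in uninjured ventricles (0.95 ± 0.13, adjusted p = 0.013). Proteoglycans took less part: 5 of 39 rose. Among these, prg4b, the lubricating proteoglycan of joint and serous surfaces in mammals, had 1963, 793 and 2152 in the cryoinjured libraries and 128, 218 and 83.2 in the uninjured libraries (3.51 ± 0.49, adjusted p = 0.0194, but 0.122 with the replicate block). bgnb, biglycan, which binds collagen and growth factors of the TGF-beta family, had 751, 539 and 731 in cryoinjured and 308, 366 and 247 in uninjured ventricles (1.13 ± 0.19, adjusted p = 0.021). SPOCK2, a testican, and has1, a hyaluronan synthase, had few reads in uninjured ventricles, 6 in all for each. SPOCK2 was at 119, 29.6 and 66.8 in cryoinjured ventricles, against 0.898, 3.07 and 2.56 in uninjured ventricles (adjusted p = 0.0138) and has1 at 16.5, 24.1 and 57.4 in the cryoinjured libraries and 0.898, 1.02 and 5.12 in the uninjured libraries (adjusted p = 0.0349).

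Of 62 tested proteases and protease inhibitors, 11 rose and none fell. mmp2, a gelatinase that also cuts collagen IV, had 5366, 2129 and 5312 in cryoinjured and 307, 362 and 404 in uninjured ventricles (3.58 ± 0.36, adjusted p = 0.00762). The secreted metalloproteinase mmp19 had 135, 128 and 173 in cryoinjured ventricles, against 8.98, 6.13 and 8.96 in uninjured ventricles (4.16 ± 0.31, adjusted p = 0.00121). adamts15a, a protease that cuts large proteoglycans, had 1262, 802 and 1148 in the cryoinjured libraries and 347, 262 and 261 in the uninjured libraries (1.88 ± 0.20, adjusted p = 0.0064). These 3 were called in all 6 fits without 1 library. On the side of the inhibitors, TIMP3, which stays bound to the matrix, had 1116, 1090 and 980.2 in cryoinjured and 594, 532 and 613 in uninjured ventricles (0.87 ± 0.13, adjusted p = 0.0162). serpinf1, a secreted serpin that limits vessel growth in mammals, had 568, 165 and 407 in cryoinjured ventricles, against 30.5, 59.3 and 37.1 in uninjured ventricles (3.16 ± 0.48, adjusted p = 0.0194, but 0.0774 with the replicate block). Over all matrix lists together, 11 of the 54 genes called higher were called in all 6 fits without 1 library (0.131% of all genes tested were), and 35 with the replicate block. Cryoinjured replicate 1 held the highest value of 30 of the 54 and replicate 3 of 23.

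Among the families of secreted ligands, 3 gave no call. None of 16 TGF-beta superfamily ligands, 12 FGF genes or 9 insulin-like growth factor genes passed by edgeR or limma voom. DESeq2 called 2, 1 and 1 of them higher (5.50% of all genes). By edgeR, 4, 3 and 3 genes of these families had an unadjusted p under 0.05, against 3678 of all 15226 genes tested. Of these families, bmp3, a BMP that opposes other BMPs in bone, had 218, 111 and 121 in the cryoinjured libraries and 84.4, 60.3 and 46.1 in the uninjured libraries (adjusted p = 0.0749). fgf18a, an FGF of mesenchymal tissues, had 34, 13 and 32.4 in cryoinjured and 6.29, 3.07 and 6.4 in uninjured ventricles (adjusted p = 0.0563). igf2b, an insulin-like growth factor, had 3219, 1569.7 and 1614 in cryoinjured ventricles, against 1038, 926 and 1048 in uninjured ventricles (adjusted p = 0.0641). Cryoinjured libraries lay above uninjured ones for all 3.

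Of 16 extracellular modulators of TGF-beta and BMP signalling, 3 rose. fsta, follistatin, which binds and blocks activins, had 588, 398 and 539.7 in the cryoinjured libraries and 242, 178 and 303 in the uninjured libraries (1.08 ± 0.23, adjusted p = 0.0386). fstl1b, a follistatin-like glycoprotein that the mammalian epicardium secretes, had 8376, 5518 and 7683 in cryoinjured and 3445, 3479.8 and 3206 in uninjured ventricles (1.09 ± 0.18, adjusted p = 0.0202, but 0.0506 with the replicate block). lrrc32, which holds latent TGF-beta at the cell surface, had 222, 154 and 259.9 in cryoinjured ventricles, against 92.5, 67.4 and 105 in uninjured ventricles (1.26 ± 0.26, adjusted p = 0.0355). Each separated the groups by a margin smaller than that of collagen I.

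Ligands of vessels and perivascular cells gave 5 calls among 22 genes. pdgfab, an A chain of platelet-derived growth factor, the ligand of Pdgfra, had 709, 294 and 467 in the cryoinjured libraries and 112, 108 and 141 in the uninjured libraries (2.03 ± 0.31, adjusted p = 0.0175). adm2a, a vasodilator peptide of the adrenomedullin family, had 488, 597 and 585 in cryoinjured and 225, 150.2 and 204 in uninjured ventricles (1.53 ± 0.19, adjusted p = 0.00896), and it was the 1 secreted factor of these lists called in all 6 fits without 1 library. angptl4, an inhibitor of lipoprotein lipase that hypoxia induces in mammals, was at 807, 420.4 and 319 in cryoinjured ventricles, against 140.1, 141 and 56.3 in uninjured ventricles (2.18 ± 0.44, adjusted p = 0.0435). angptl1a and angptl5, which belong to the same angiopoietin-like family, rose by 1.26 ± 0.24 and 3.00 ± 0.65; angptl5 lost its call with the replicate block (adjusted p = 0.135). Of 18 genes in the list of Wnt ligands and secreted antagonists, sfrp5 and dkk3b rose and no Wnt ligand did. sfrp5, which binds Wnt proteins, had 252, 142 and 144 in the cryoinjured libraries and 78.1, 57.2 and 64 in the uninjured libraries (1.43 ± 0.28, adjusted p = 0.0331). dkk3b, of the dickkopf family, had 760.5, 242 and 492 in cryoinjured and 134, 171 and 89.6 in uninjured ventricles (1.92 ± 0.42, adjusted p = 0.0496, but 0.114 with the replicate block).

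Among 14 genes of midkine, pleiotrophin, the CCN proteins and related factors, 2 rose. ccn2a, connective tissue growth factor, a target of TGF-beta and of the Hippo effector Yap, had 1912, 1784 and 1283 in cryoinjured ventricles, against 573, 915 and 468 in uninjured ventricles (1.35 ± 0.26, adjusted p = 0.033). sparc, a collagen-binding protein of remodelling tissue, had 8375, 5187 and 7559.7 in the cryoinjured libraries and 3704, 3247 and 2067 in the uninjured libraries (1.23 ± 0.26, adjusted p = 0.0388, but 0.0554 with the replicate block). The groups did not overlap for either gene.

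Cytokines and chemokines gave 1 call each. cntf, ciliary neurotrophic factor, a cytokine that signals through the receptor subunit shared with interleukin-6, had 1174, 658 and 1205 in cryoinjured and 264, 242 and 384 in uninjured ventricles (1.77 ± 0.27, adjusted p = 0.0175) and was the 1 of 14 interleukin, TNF and colony-stimulating factor genes called. ackr4a, a receptor that takes up chemokines without signalling, had 80.8, 96.3 and 91.9 in cryoinjured ventricles, against 22.4, 21.5 and 23 in uninjured ventricles (2.00 ± 0.27, adjusted p = 0.0118), 1 of 25 chemokines and receptors. That is 4.0% of the chemokine list called higher, against 2.70% of all genes tested. The 3 libraries of each group were close together for ackr4a. In the complement and coagulation list 4 of 29 rose. c7a, a component of the membrane attack complex, had 278, 193 and 335 in the cryoinjured libraries and 34.1, 65.4 and 32 in the uninjured libraries (2.61 ± 0.33, adjusted p = 0.0111). clu, clusterin, an extracellular chaperone that blocks that complex, had 1406, 733 and 1122 in cryoinjured and 342, 511 and 305 in uninjured ventricles (1.49 ± 0.27, adjusted p = 0.0293, but 0.0805 with the replicate block). f13a1b, the catalytic chain of factor XIII that cross-links fibrin, had 216, 326 and 298 in cryoinjured ventricles, against 98.8, 121 and 66.6 in uninjured ventricles (1.55 ± 0.26, adjusted p = 0.0202). plat, the tissue plasminogen activator that starts fibrin breakdown, had 477, 354 and 423 in the cryoinjured libraries and 216, 236 and 186 in the uninjured libraries (0.97 ± 0.17, adjusted p = 0.0242, but 0.0563 with the replicate block).

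**Figure D3:**
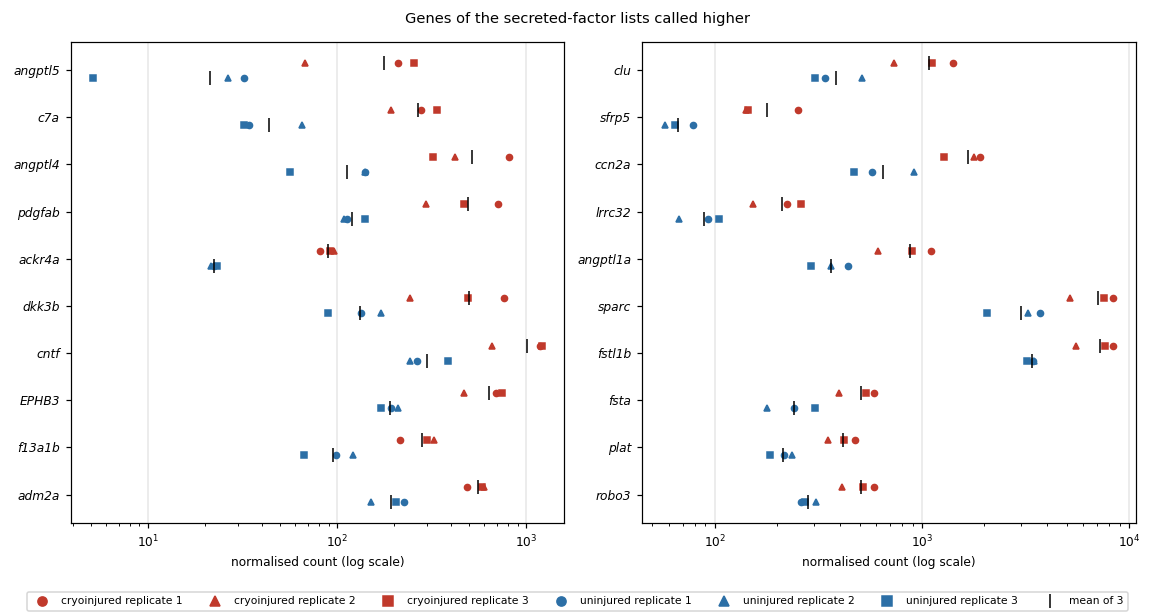
Normalised counts, on a logarithmic axis, of the 20 genes of the secreted-factor lists that were called higher, in order of log2 fold change (cryoinjured red, uninjured blue, symbols by replicate number, black ticks for the mean of 3). For each gene the 3 red points lie to the right of the 3 blue points.

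Of 64 guidance molecules and their receptors, 2 rose, both receptors, and none fell. That is 3.1% higher, against 2.70% of all genes tested. EPHB3, a receptor for ephrin-B ligands, had 694, 468 and 741 in cryoinjured and 192, 208 and 170.2 in uninjured ventricles (1.73 ± 0.20, adjusted p = 0.00799). robo3, of the family of slit receptors, had 588, 411 and 519 in cryoinjured ventricles, against 261, 309 and 271 in uninjured ventricles (0.85 ± 0.17, adjusted p = 0.0333, but 0.0793 with the replicate block). None of 67 receptors for growth factors was called by edgeR or limma voom, and 46 of the 67 were below 0, with a median of -0.16. The unadjusted edgeR p was under 0.05 for 12 of the 67, against 3678 of all 15226 genes tested. DESeq2 called 1 of the 67 higher and 5 lower (5.50% and 4.64% of all genes). The smallest p was that of jag2b, a Notch ligand kept in this list, with 406, 338 and 397 in the cryoinjured libraries and 564, 595 and 547 in the uninjured libraries (adjusted p = 0.0501).

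Adhesion genes gave 6 calls up and 1 down among 52. itga6a, an integrin chain of laminin receptors, had 90.9, 36.1 and 64.7 in cryoinjured and 6.29, 3.07 and 2.56 in uninjured ventricles (3.92 ± 0.53, adjusted p = 0.0128). fblim1, an adaptor that links adhesions to actin filaments, had 328, 214 and 258 in cryoinjured ventricles, against 71.8, 51.1 and 85.8 in uninjured ventricles (1.94 ± 0.25, adjusted p = 0.0111). itgb3b, the beta chain of the fibrinogen receptor of thrombocytes, rose by 1.06 ± 0.19, and fermt3b, the kindlin of blood cells that activates such integrins, by 1.01 ± 0.20. csrp1a, a LIM protein of actin bundles, rose by 0.86 ± 0.14. tns1b, a tensin, fell, with 1274, 1466 and 1428 in the cryoinjured libraries and 2196, 1919 and 2204 in the uninjured libraries (-0.60 ± 0.13, adjusted p = 0.0448). None of the 7 calls was made without uninjured replicate 1, or without cryoinjured replicate 3.

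Response genes of the signalling pathways gave 5 calls among 175, 2.86% against 3.92% of all genes tested. The growth factor ccn2a was the 1 call among 35 genes of the Smad, SRF and TGF-beta response. None of 29 Hippo, Notch and Wnt response genes was called by edgeR or limma voom, and 8 had an unadjusted edgeR p under 0.05. DESeq2 called 1 of the 29 lower (4.64% of all genes). nrarpa, a feedback target of Notch, had the smallest p, with 16.5, 16.7 and 10.4 in cryoinjured and 39.5, 37.8 and 60.2 in uninjured ventricles (adjusted p = 0.0515). None of 27 interferon response genes was called by edgeR, DESeq2 or limma voom, and 1 had an unadjusted p under 0.05, irf9, a subunit of the interferon-activated factor, with 2218, 2866 and 1979 in cryoinjured ventricles, against 1814, 1339.8 and 1827 in uninjured ventricles (adjusted p = 0.148). Of 51 JAK-STAT and NF-kappaB genes 1 fell, TLR5, the receptor for bacterial flagellin, with 92.8, 145 and 109 in the cryoinjured libraries and 241, 187 and 316 in the uninjured libraries (-1.10 ± 0.25, adjusted p = 0.0491). Of 35 hypoxia response genes, angptl4 and slc2a3b rose and bnip3la fell. slc2a3b, a glucose transporter, had 381, 673 and 381 in cryoinjured and 135, 168 and 205 in uninjured ventricles (1.51 ± 0.27, adjusted p = 0.0249). bnip3la, a receptor that targets mitochondria for removal, had 1217, 1436 and 1546 in cryoinjured ventricles, against 2598, 2459.9 and 2069.8 in uninjured ventricles (-0.76 ± 0.15, adjusted p = 0.0333).

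Transcription factors gave 15 calls among 281 genes, 5.34% against 3.92% of all genes tested, and those that rose were mostly factors of mesenchyme. Of 59 mesenchymal and epicardial factors 6 rose and none fell. wt1a and wt1b, the copies of the Wilms tumour factor that marks activated epicardium, both rose. wt1a had 546, 312 and 369.5 in the cryoinjured libraries and 136, 155 and 129 in the uninjured libraries (1.54 ± 0.23, adjusted p = 0.0162), and wt1b had 445, 321 and 544 in cryoinjured and 19.8, 67.4 and 83.2 in uninjured ventricles (2.97 ± 0.46, adjusted p = 0.0202). Uninjured ventricles thus already held transcripts of both. meox1, a homeobox factor of activated fibroblasts in mammalian hearts, had 17.5, 17.6 and 42.8 in cryoinjured ventricles, against 0.898, 0 and 1.28 in uninjured ventricles, from 79 reads in cryoinjured and 2 in uninjured libraries (adjusted p = 0.0194), and no fold is given. osr1, a zinc-finger factor of early mesoderm, had 66.1, 32.4 and 48 in the cryoinjured libraries and 11.7, 15.3 and 15.4 in the uninjured libraries (1.79 ± 0.39, adjusted p = 0.0448). sox6, a factor of cartilage and muscle development, had 192, 157 and 225 in cryoinjured and 83.5, 84.8 and 101 in uninjured ventricles (1.09 ± 0.21, adjusted p = 0.0302). osr1 and sox6 lost their calls with the replicate block (adjusted p = 0.0996 and 0.0617).

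Outside that list, 3 factors rose. mitfa, a factor of pigment cells that also acts in osteoclasts and mast cells of mammals, had 22, 20.4 and 15.7 in cryoinjured ventricles, against 2.69, 3.07 and 2.56 in uninjured ventricles, from 61 and 8 reads (2.75 ± 0.50, adjusted p = 0.026). mybl2b, a Myb factor of dividing cells, had 99.2, 131 and 142 in the cryoinjured libraries and 26, 57.2 and 44.8 in the uninjured libraries (1.54 ± 0.32, adjusted p = 0.0378). egr1, an immediate early gene, had 441, 605 and 533 in cryoinjured and 305, 257 and 351 in uninjured ventricles (0.79 ± 0.18, adjusted p = 0.0457), whereas jun, another, fell, with 1463, 1151 and 1213 in cryoinjured ventricles, against 1884, 2198 and 2036 in uninjured ventricles (-0.68 ± 0.14, adjusted p = 0.0404). The median of the 29 AP-1 and immediate early genes was 0.10. Both groups were compact and apart for jun.

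Factors that fell included nuclear receptors and a factor of heart muscle. Of 62 nuclear receptor and circadian genes 3 fell and none rose, and 15 were above 0, with a median of -0.29. pparab, a fatty acid-sensing receptor that drives genes of lipid oxidation, had 43.2, 62 and 45.9 in the cryoinjured libraries and 131, 122 and 97.3 in the uninjured libraries (-1.21 ± 0.25, adjusted p = 0.0386). rorca, a receptor of the clock and of lymphoid cells, had 434, 507 and 457 in cryoinjured and 926, 803 and 692 in uninjured ventricles (-0.79 ± 0.15, adjusted p = 0.0281). nr3c2, the mineralocorticoid receptor, had 45, 76.9 and 68.9 in cryoinjured ventricles, against 145, 122 and 147 in uninjured ventricles (-1.12 ± 0.26, adjusted p = 0.0489). hand2, a factor needed to form the ventricle, had 1233, 1257 and 1292 in the cryoinjured libraries and 1745, 1829 and 2054 in the uninjured libraries (-0.57 ± 0.13, adjusted p = 0.0446), 1 of 2 lower calls among 47 cardiomyocyte factors, the other being pparab. dmtf1, a Myb-like factor, fell (log2 fold change -1.72 ± 0.36). None of 29 endothelial factors was called by edgeR or limma voom, and 2 had an unadjusted edgeR p under 0.05. DESeq2 called 1 of the 29 lower (4.64% of all genes). The smallest p was that of epas1b, a hypoxia-inducible factor, at 56, 101 and 63.7 in cryoinjured and 131, 112 and 182 in uninjured ventricles (adjusted p = 0.102). No transcription factor call was made in all 6 fits without 1 library, and with the replicate block 4 of the 9 higher calls and none of the 6 lower calls were made.

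**Figure D4:**
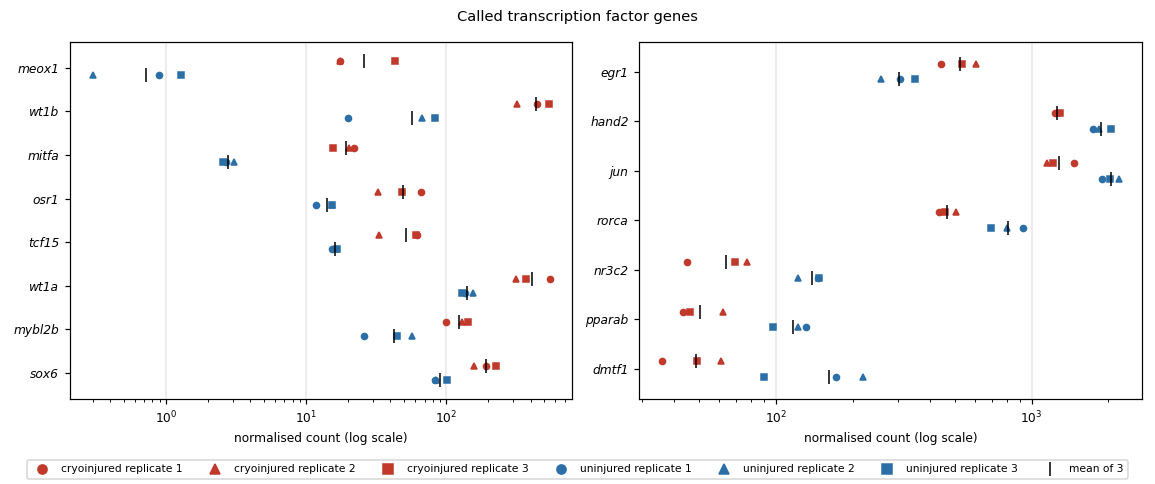
Normalised counts, on a logarithmic axis, of the 15 transcription factor genes that were called, in order of log2 fold change (cryoinjured red, uninjured blue, symbols by replicate number, black ticks for the mean of 3; a count of 0 is drawn at 0.3). The gap is widest for meox1, which was read at most once in each uninjured library, and narrow for hand2 and jun.

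Of the 169 tested cell-cycle genes, 43 were called higher. Of 68 genes of DNA replication and S phase 21 rose, none fell and 62 were above 0, with a median log2 fold change of 0.99. Of 78 genes of mitosis and cytokinesis 21 rose, none fell and 72 were above 0, with a median of 0.96. mcm2 and mcm3, subunits of the replicative helicase, had 407, 606 and 682 in cryoinjured ventricles, against 150, 217 and 219 in uninjured ventricles for the first (1.54 ± 0.23, adjusted p = 0.0174) and 269, 409 and 472 in the cryoinjured libraries and 101, 142 and 157 in the uninjured libraries for the second (1.53 ± 0.25, adjusted p = 0.0202). Uninjured replicate 1 was the lowest and cryoinjured replicate 3 the highest for both. tyms, thymidylate synthase, which makes a building block of DNA, had 109, 112 and 162 in cryoinjured and 38.6, 38.8 and 43.5 in uninjured ventricles (1.66 ± 0.26, adjusted p = 0.0175). ccne2, the cyclin of entry into S phase, had 44.1, 38 and 49.1 in cryoinjured ventricles, against 8.08, 9.20 and 11.5 in uninjured ventricles (2.19 ± 0.37, adjusted p = 0.0202).

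In mitosis, aurkb, the kinase that corrects spindle attachments, had 161, 195 and 195 in the cryoinjured libraries and 47.6, 77.7 and 76.8 in the uninjured libraries (1.45 ± 0.24, adjusted p = 0.0202). ect2, which directs the furrow of cytokinesis, had 56, 55.6 and 66.8 in cryoinjured and 11.7, 14.3 and 17.9 in uninjured ventricles (2.03 ± 0.34, adjusted p = 0.0202). cks1b, a subunit of cyclin-dependent kinases, had 206, 239 and 243 in cryoinjured ventricles, against 70.9, 97.1 and 106 in uninjured ventricles (1.33 ± 0.21, adjusted p = 0.0175). haus4, of the complex that branches spindle microtubules, had 154, 176 and 184 in the cryoinjured libraries and 64.7, 67.4 and 85.8 in the uninjured libraries (1.24 ± 0.21, adjusted p = 0.0202), and lmnb2, a lamin of the nuclear envelope, had 1333, 1074 and 1098 in cryoinjured and 484, 428 and 603 in uninjured ventricles (1.21 ± 0.17, adjusted p = 0.0128). All 5 separated the groups. Of 23 D-type cyclins and inhibitors of the cycle 1 rose, cdkn1a, the p53 target that arrests cells, with 270, 156 and 214 in cryoinjured ventricles, against 37.7, 20.4 and 83.2 in uninjured ventricles (2.2 ± 0.46, adjusted p = 0.0423). In which cells the cycle genes were transcribed cannot be read from these pools.

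The cell-cycle calls rested on the whole set of pools. Without uninjured replicate 1, and likewise without cryoinjured replicate 3, none of the 169 genes was called higher. Without uninjured replicate 3, 41 were called higher and 4 lower (3.68% and 2.81% of all genes). With the replicate block 28 were called higher (1.33% of all genes), 26 of them among the 43. Per library, the median deviation of the mitosis genes from their means over 6 libraries was 0.42, 0.51 and 0.70 in cryoinjured ventricles, against -1.16, -0.23 and -0.28 in uninjured ventricles, on the log2 scale. Uninjured replicate 1 was therefore far lower than the other uninjured pools, and the groups did not overlap.

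**Figure D5:**
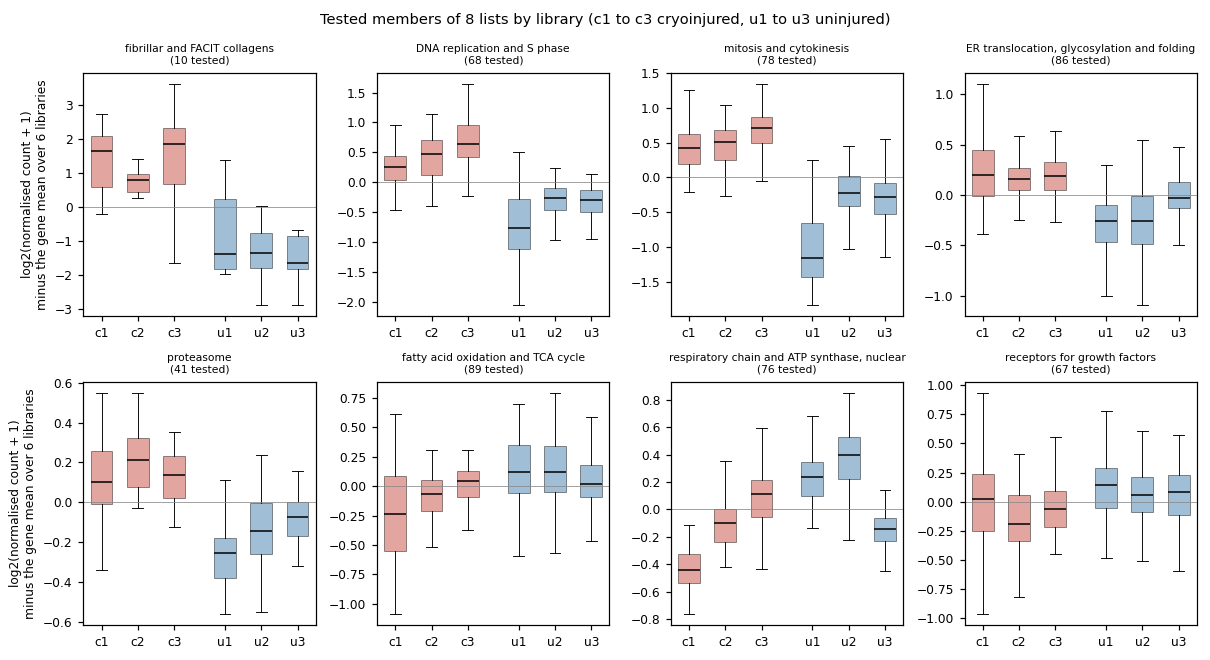
Deviation of log2(normalised count + 1) from the mean of the gene over 6 libraries, for the tested members of 8 lists, by library (red, cryoinjured c1 to c3; blue, uninjured u1 to u3; boxes are quartiles with the median as a line, whiskers reach the last gene within 1.5 times the interquartile range, and genes beyond are not drawn). The medians of the fibrillar collagens and of the replication and mitosis lists lie above 0 in every cryoinjured library and below 0 in every uninjured one, whereas those of the respiratory chain overlap between groups, with cryoinjured replicate 1 lowest.

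Genes of the secretory pathway were read in several lists. Of 86 genes for ER translocation, glycosylation and folding, 72 were above 0, 7 rose and none fell, with a median of 0.36. calua, calumenin, a calcium-binding protein of the secretory lumen, had 305, 173 and 269 in the cryoinjured libraries and 18, 16.4 and 48.6 in the uninjured libraries (3.21 ± 0.43, adjusted p = 0.013) and was the largest of these changes. rcn3, a related protein that aids collagen production in mice, had 1371, 718 and 978 in cryoinjured and 404, 477 and 489 in uninjured ventricles (1.16 ± 0.23, adjusted p = 0.0322, but 0.0617 with the replicate block). ssr4, of the translocon-associated complex, had 1639, 1323 and 1272 in cryoinjured ventricles, against 749, 677 and 778 in uninjured ventricles (0.94 ± 0.14, adjusted p = 0.0174). mogs, which trims the first glucose of N-glycans, rose by 1.26 ± 0.21, and txndc5, a protein disulphide isomerase, by 1.06 ± 0.17. Without uninjured replicate 3, 24 genes of the list were called higher (3.68% of all genes were). The stress response that ER load can trigger was called once among 62 genes by edgeR, in asns, asparagine synthetase, with 172, 196 and 170.2 in the cryoinjured libraries and 63.8, 78.7 and 101 in the uninjured libraries (1.15 ± 0.22, adjusted p = 0.0313, but 0.0659 with the replicate block). The unadjusted edgeR p was under 0.05 for 29 of the 62, against 3678 of all 15226 genes tested. Log2 fold changes in this list ran from -1.60 to 2.87. DESeq2 called 6 of the 62 higher and 4 lower (5.50% and 4.64% of all genes).

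Vesicle traffic between ER and Golgi gave calls in both directions among 63 genes, 4.76% higher and 3.17% lower, against 2.70% and 1.22% of all genes tested. sec16b, a scaffold of ER exit sites, had 72.6, 33.3 and 33.4 in cryoinjured and 9.88, 7.15 and 3.84 in uninjured ventricles (2.68 ± 0.51, adjusted p = 0.0302). The GTPase ARF5 and GORASP2, a stacking protein of the Golgi, also rose, by 0.75 ± 0.17 and 0.66 ± 0.14, but not with the replicate block (adjusted p = 0.0933 and 0.107). The 2 genes that fell were sar1ab and sec24b: sar1ab, the GTPase that starts the COPII coat, had 324, 350.1 and 349 in cryoinjured ventricles, against 824, 964 and 504 in uninjured ventricles (-1.17 ± 0.22, adjusted p = 0.0303), and sec24b, its cargo adaptor, had 395, 412 and 406 in the cryoinjured libraries and 708, 864 and 562 in the uninjured libraries (-0.82 ± 0.17, adjusted p = 0.0361). Uninjured replicate 3 was the closest of the uninjured pools to the cryoinjured ones for both. The proteasome list held 6 calls up among 41 genes, of which 35 were above 0, with a median of 0.32. psma4, a subunit of the core, had 1642, 1911 and 1619 in cryoinjured and 1003, 1013 and 1062 in uninjured ventricles (0.75 ± 0.13, adjusted p = 0.0211), and psmb2, psmc4, psmd8 and psma2, of core and cap, rose by 0.67, 0.69, 0.67 and 0.72. None of these proteasome calls was made with the replicate block (adjusted p from 0.0637 to 0.0998 for the 5 genes). cd276, an immune checkpoint protein of the B7 family, and erap1b, which trims peptides for class I molecules, were the 2 calls among 16 antigen presentation genes. cd276 had 988, 604 and 765 in cryoinjured ventricles, against 257, 241 and 273 in uninjured ventricles (1.61 ± 0.19, adjusted p = 0.00838). Of 75 lysosome and phagosome genes none rose, and atp6v0a1a, a subunit of the proton pump, fell, with 929, 927 and 901 in the cryoinjured libraries and 1488, 1549 and 1325 in the uninjured libraries (-0.66 ± 0.12, adjusted p = 0.0277). Of 66 genes of ribosome biogenesis 1 fell, utp4, which processes small-subunit RNA, with 692, 636 and 618 in cryoinjured and 1360.3, 1669.9 and 1119 in uninjured ventricles (-1.09 ± 0.16, adjusted p = 0.0174). The lower calls were 1.33% of the lysosome list and 1.52% of the ribosome biogenesis list, against 1.22% of all genes tested.

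In the cytoskeleton, the microtubule list held 6 higher calls among 21 genes. dpysl3, a protein of the CRMP family that binds tubulin in growing axons, had 848, 664 and 899.8 in cryoinjured ventricles, against 175, 190.1 and 184 in uninjured ventricles (2.13 ± 0.16, adjusted p = 0.00121), among the smallest p-values of the whole table, and it was called in all 6 fits without 1 library. Its relative dpysl2b rose by 1.00 ± 0.21. tppp3, a microtubule-bundling protein of tendon progenitors in mice, had 502, 344 and 767 in the cryoinjured libraries and 189, 111 and 94.7 in the uninjured libraries (2.02 ± 0.36, adjusted p = 0.0278). map1b, a microtubule-associated protein of immature neurons, had 94.6, 100 and 65.8 in cryoinjured and 18.9, 15.3 and 5.12 in uninjured ventricles (2.68 ± 0.44, adjusted p = 0.0194). The glial and neuronal markers, of which 3 of 27 had enough counts to be tested, summed to 0.00107% to 0.00127% of a library in cryoinjured ventricles and 0.00089% to 0.00154% in uninjured ventricles. None of the 3 was called by edgeR, DESeq2 or limma voom or had an unadjusted p under 0.05, and the part of such cells in the result was not tested. tuba1c, 1 of several near-identical alpha-tubulins whose reads may be shared, had 211, 106 and 168 in cryoinjured ventricles, against 35.9, 54.2 and 37.1 in uninjured ventricles (1.93 ± 0.32, adjusted p = 0.0194). Of 84 genes of the actin cytoskeleton and non-muscle myosin 6 rose. s100a10a, the annexin partner of the plasma membrane, had 13485, 8232 and 14846 in the cryoinjured libraries and 1146, 1881 and 1508 in the uninjured libraries (3.01 ± 0.28, adjusted p = 0.00444). anxa3b and anxa5b, 2 annexins, rose by 0.90 ± 0.14 and 0.97 ± 0.17. TPM1, a tropomyosin, had 1489.8, 716 and 1074 in cryoinjured and 303, 409.8 and 489 in uninjured ventricles (1.45 ± 0.28, adjusted p = 0.0333).

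Genes of contraction and calcium handling are given beside the shares of all genes tested, 2.70% higher and 1.22% lower. Of 65 sarcomere genes 2 rose (3.08%), ACTA1 (ENSXMAG00000015025) and TPM1, and none fell, with a median of 0.02. The unadjusted edgeR p was under 0.05 for 22 of the 65, against 3678 of all 15226 genes tested. DESeq2 called 7 of them higher and 8 lower (5.50% and 4.64% of all genes). Without uninjured replicate 3, edgeR called 3 higher and 6 lower (3.68% and 2.81%). Of 52 genes of calcium handling and excitation 1 rose, srl, sarcalumenin, a calcium store of the sarcoplasmic reticulum, with 3898, 4264 and 4220.3 in cryoinjured ventricles, against 2305, 1954 and 2911 in uninjured ventricles (0.79 ± 0.17, adjusted p = 0.0422). Of 22 hormone, natriuretic peptide and retinoid genes 1 fell, dhrs3b, which turns retinal back to retinol, with 5268, 2555 and 4439 in the cryoinjured libraries and 9139.9, 8018 and 9056 in the uninjured libraries (-1.10 ± 0.25, adjusted p = 0.0494).

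Several lists of metabolic genes had medians below 0. Of 89 genes of fatty acid oxidation, lipid handling and the TCA cycle 4 fell and none rose, with 29 above 0. lpin1, a phosphatidate phosphatase, had 309, 257 and 329.9 in cryoinjured and 899.7, 1302 and 1103 in uninjured ventricles (-1.88 ± 0.18, adjusted p = 0.00444). pnpla2, the lipase that opens stored triglyceride, had 551, 677 and 708 in cryoinjured ventricles, against 1370.2, 1434 and 1144 in uninjured ventricles (-1.03 ± 0.15, adjusted p = 0.0162). fasn, fatty acid synthase, had 345, 599 and 627 in the cryoinjured libraries and 1152, 930 and 1049.6 in the uninjured libraries (-1.0 ± 0.22, adjusted p = 0.0467). acsbg2, an acyl-CoA synthetase, fell (-0.87 ± 0.20). Only lpin1 was called in all 6 fits without 1 library. Of 76 nuclear genes of the respiratory chain and ATP synthase, 9 were above 0 and the median was -0.33, but single calls were 2: NDUFS1, a subunit of complex I, fell, with 639, 583 and 809 in cryoinjured and 1371, 1387 and 1059.8 in uninjured ventricles (-0.91 ± 0.17, adjusted p = 0.0281), and cycsb, cytochrome c, rose, with 2221, 2482 and 1715 in cryoinjured ventricles, against 772, 918 and 1276 in uninjured ventricles (1.11 ± 0.22, adjusted p = 0.0313). These calls were 1.32% of the list in each direction, against 2.70% higher and 1.22% lower of all genes tested. Neither NDUFS1 nor cycsb was called with the replicate block. By library the median deviation of the respiratory list was -0.44, -0.10 and 0.11 in cryoinjured ventricles, against 0.23, 0.40 and -0.14 in uninjured ventricles, so that the groups overlapped. Without uninjured replicate 3, 1 gene of the list was called higher and 11 lower (3.68% and 2.81% of all genes).

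Of 59 genes of glycolysis and glycogen, slc2a3b rose and 2 fell, 1.69% and 3.39%, against 2.70% and 1.22% of all genes tested. pkmb, a muscle pyruvate kinase, had 9505, 9825 and 9816 in the cryoinjured libraries and 25609, 30985 and 13457 in the uninjured libraries (-1.27 ± 0.28, adjusted p = 0.0457). gyg1b, glycogenin, the primer of glycogen, had 299, 269 and 396 in cryoinjured and 1229, 1366 and 529 in uninjured ventricles (-1.70 ± 0.34, adjusted p = 0.0405). The cryoinjured pools were even for both genes, and uninjured replicate 3 lay well below the other 2 uninjured pools. PFKM, a muscle phosphofructokinase that was matched to no list, rose, with 513, 527 and 353 in cryoinjured ventricles, against 148, 179.9 and 132 in uninjured ventricles (1.60 ± 0.21, adjusted p = 0.0111). In the cholesterol and lipoprotein list 3 of 38 rose. apoa1b, the main protein of high-density lipoprotein, had 787, 295 and 576 in the cryoinjured libraries and 60.2, 64.4 and 49.9 in the uninjured libraries (3.24 ± 0.35, adjusted p = 0.00799). ldlrb, a receptor for low-density lipoprotein, had 145, 162 and 164 in cryoinjured and 76.3, 67.4 and 57.6 in uninjured ventricles (1.22 ± 0.21, adjusted p = 0.021), and hmgcs1, an enzyme of cholesterol synthesis, had 512, 533 and 447 in cryoinjured ventricles, against 248, 330.1 and 334 in uninjured ventricles (0.71 ± 0.16, adjusted p = 0.0497). The apoa1b gene is also in the liver and pancreas list, of whose 10 tested members it was the 1 called. That list summed to 0.00276% to 0.00465% of a library in cryoinjured ventricles and 0.00163% to 0.0197% in uninjured ventricles, with its defining marker fabp10a at 0 to 2.09 normalised counts in cryoinjured and 3.84 to 7.15 in uninjured ventricles, and its part in the result was not tested. gstt1a, a glutathione transferase, and hspe1, a mitochondrial chaperonin, were the single calls of the antioxidant and heat shock lists, of 50 and 53 genes, at 1.12 ± 0.24 and 0.72 ± 0.16. That is 2.0% and 1.89% of these lists called higher, against 2.70% of all genes tested.

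Outside the lists, tmem98, a transmembrane protein, had the smallest p of the named genes that rose, with 200.2, 199 and 259 in the cryoinjured libraries and 26.9, 42.9 and 47.4 in the uninjured libraries (2.50 ± 0.26, adjusted p = 0.00611). ehd4, which reshapes endosomes, had 607, 487 and 477 in cryoinjured and 161, 206 and 198 in uninjured ventricles (1.48 ± 0.17, adjusted p = 0.00799). fabp11a, a fatty acid-binding protein of teleosts, was abundant and rose, with 28553, 25041 and 18372 in cryoinjured ventricles, against 7849, 8660.1 and 8805 in uninjured ventricles (1.51 ± 0.20, adjusted p = 0.0111). blvra, biliverdin reductase, the step after haem breakdown, had 381, 499 and 451 in the cryoinjured libraries and 157, 195 and 189 in the uninjured libraries (1.30 ± 0.17, adjusted p = 0.0111). COLEC10, a collectin, rose by 1.68 ± 0.22, lrrc17, a secreted leucine-rich protein, by 2.31 ± 0.30, and rasl11a, a small GTPase, by 1.90 ± 0.24. dhrs13b.1, a dehydrogenase, had 90, 33.3 and 101 in cryoinjured and 1.80, 0 and 0 in uninjured ventricles (adjusted p = 0.0111).

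Among genes outside the lists that fell, several encode enzymes and transporters. cpe, carboxypeptidase E, which finishes peptide hormones, had 228, 203 and 293 in cryoinjured ventricles, against 598, 663 and 710.4 in uninjured ventricles (-1.45 ± 0.17, adjusted p = 0.00838). ABCD2, a peroxisomal carrier of very long-chain fatty acids, had 48.7, 52.8 and 63.7 in the cryoinjured libraries and 167, 160.4 and 168 in the uninjured libraries (-1.58 ± 0.21, adjusted p = 0.0111). The log2 fold changes of ugt1a1 (ENSXMAG00000004967) and ugt5f1, glucuronosyltransferases with similar copies among which reads may be shared, were -1.11 ± 0.13 and -0.99 ± 0.13. Those of slc7a6, an amino acid transporter, and rps6ka2, a kinase downstream of ERK, were -1.96 ± 0.23 and -1.31 ± 0.19. The calcium-binding tesca, a partner of sodium-proton exchangers, was at -1.28 ± 0.18. Values for stoml3b, of the stomatin family, ttc36 and rsph3, a protein of ciliary radial spokes, were -0.94 ± 0.13, -2.09 ± 0.29 and -1.87 ± 0.22. The cryoinjured libraries of all 10 lay below every uninjured one, and each of the 10 had an adjusted p under 0.05.

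Of the 25 genes called in every fit that left out 1 library, the 20 that rose included 11 of the matrix lists, namely thbs4b, mmp19, mmp2, adamts15a, ECM2, loxa, loxl2a, col12a1a, col1a1a, col1a1b and col1a2. The others with a gene name were dpysl3, s100a10a, tmem98 and adm2a, beside 2 named after clones and 3 without a symbol. The 5 that fell were lpin1, slc7a6, cpe, rsph3 and ugt1a1. No cell-cycle gene, transcription factor, receptor or proteasome gene was among them.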

How the data were processed

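RNA from 6 platyfish libraries, 3 cryoinjured and 3 uninjured, was compared. Per the submitters' processing notes, the authors aligned reads with HISAT2 2.2.1 and deposited whole-number counts per gene made with featureCounts 2.0.1. The only genome build named there is GRCz11, a zebrafish build, although the platyfish table carries platyfish gene identifiers; the platyfish build, the strand setting and the treatment of reads that match several genes are not given in the sources used here. The authors also deposited normalised values (unit: signal), log2 fold changes and adjusted p-values from DESeq2 1.38.3, per the file headers and those notes. The normalised values were not used. At an adjusted p-value under 0.05, the authors' deposited table holds 875 genes with a positive and 738 with a negative log2 fold change, and all 411 and 186 genes called here were among them.

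Counts were fitted with edgeR 4.0.16 in R 4.3.3 (filterByExpr, TMM scaling, robust quasi-likelihood dispersions, glmQLFTest) over 15226 of 24209 genes, with Benjamini-Hochberg adjustment over all of them and a threshold of 0.05. The standard error of a log2 fold change is its size divided by the square root of F. To give normalised counts, each count was scaled to the mean of the effective library sizes. These values are not divided by gene length, so levels of different genes are not compared. The 67 gene lists, the genes named in the text and the cell type markers were chosen with earlier results of these data known. From each list the 5 higher and 5 lower called genes with the smallest p were eligible to be named, or 1 gene where none was called, with all defining markers and, outside the lists, the 10 with the smallest p in each direction. mrc1a, fli1a, alas2 and CPA1 were named after their values were seen. List members were matched by gene symbol, and 16561 genes of the table carry one.

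Depth was 19073562 to 31148127 counts per library. Exact (Clopper-Pearson) 95% intervals of the marker shares reached at most 12.8% of the share to either side; they cover counting error only. Replicates of a group differed by more than sampling noise (chi-square per degree of freedom 31.5 to 67.7). The replicate number stands under a batch tag in the labels, but deviations of same-numbered cryoinjured and uninjured pools were not positively correlated (correlations of their deviations from the group means -0.09, -0.18 and -0.18), so the fit with a replicate block is an alternative. Other alternatives were DESeq2 1.42.0, limma 3.58.1 voom, other scalings and filters, a threshold of 0.01 and leaving out each library. On simulated counts for this comparison (5 simulations, 15226 genes, 200 of them changed by 1.5 on the log2 scale), the fit recovered 89.4% of the changed genes, none in the wrong direction, and 6.75% of its calls were false. The changed genes were drawn only from genes with higher mean counts, and each gene was simulated independently. These shares therefore do not cover genes with few counts or shifts of a whole library. Zebrafish libraries were not analysed here. Results for 2 genes that the rule named are not reported here.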

Additional observations from a re-analysis of the deposited data

How the results depend on the processing

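Counts of genes higher and lower in cryoinjured ventricles were 411 and 186, and they stayed within 1.5 times that size, in both directions, with DESeq2 size factors in edgeR, when the 20 most abundant genes were left out of the totals, with no filter or a stricter filter on low counts, and with limma voom. DESeq2 itself called 876 and 738. Scaling by library size alone gave 104 lower, and the replicate block 203 and 53. At an adjusted p under 0.01, 30 and 6 genes were called. Leaving out 1 library gave 21 to 572 higher and 6 to 436 lower. Omitting cryoinjured replicate 1 gave 124 and 36, replicate 2 gave 285 and 121, and replicate 3 gave 42 and 14. Omitting uninjured replicate 1 gave 21 and 6, replicate 2 gave 53 and 9, and replicate 3 gave 572 and 436. Some of the 189 named genes tested were not called in the main fit and had no call to lose. Of the others, 136, 120 and 16 lost their call when uninjured replicates 1, 2 and 3 were omitted. The losses were 79, 42 and 120 when cryoinjured replicates 1, 2 and 3 were omitted, and 61 with the replicate block. The block turned no direction among the 189. The causes were not tested. Changes of sign were limited to 6 named genes not called in the main comparison, whose log2 fold changes without 1 library ranged from -0.23 to 0.87 for prss1, -5.31 to 1.04 for ckma, -0.36 to 0.075 for csf1ra, -0.15 to 0.13 for kdr, -0.19 to 0.67 for lck and -0.040 to 0.68 for LYZ (ENSXMAG00000011983); prss1 was also at -0.30 with limma voom and csf1ra at 0.0091 with library size alone. With 3 pools per group, calls rest on the spread between pools, and the folds of 8 called genes named in the lists, with fewer than 10 reads over the uninjured pools, are imprecise.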

Other observations

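A pair of further groups of genes were listed after the called genes had been seen, and are given as counts only. Of 47 tested Sm, LSm and other proteins of the spliceosomal snRNPs, which remove introns from pre-messenger RNA, 8 were higher in cryoinjured ventricles and none lower (2.70% and 1.22% of all genes tested), with a median log2 fold change of 0.32 and 32 of 47 above 0. Their summed counts were 0.202%, 0.183% and 0.158% of a library in cryoinjured ventricles, against 0.139%, 0.139% and 0.164% in uninjured ventricles, so that the groups overlapped. For 7 of the 8 the highest value was in cryoinjured replicate 1.

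Of 53 tested genes of amino acid breakdown, 6 were lower in cryoinjured ventricles and none higher, with a median of -0.39 and 43 of 53 below 0. Their summed counts were 0.364%, 0.428% and 0.435% of a library in cryoinjured ventricles and 0.608%, 0.536% and 0.549% in uninjured ventricles, with no overlap. Neither list kept a call with the replicate block, without uninjured replicate 1 or without cryoinjured replicate 3. Without uninjured replicate 3, 10 snRNP genes were called higher, and of the genes of amino acid breakdown 1 was called higher and 10 lower. In that fit 3.68% of all genes were called higher and 2.81% lower.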
